A study of Rattus norvegicus with 56 samples.

Results

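The genes described here are 7 cholesterol efflux genes of the kind switched on by the liver X receptors (LXR): Abca1, Abcg1, Abcg5, Abcg8, Apoe, Apoc1 and Pltp. They were chosen by name, with earlier results of these data known. Every probe set whose updated gene symbol was one of these names was taken. That gave 8 probe sets of 5 genes, out of 15866 probe sets and 10411 genes tested. Abcg1 had 3 probe sets, Apoe had 2, and Abcg5, Abcg8 and Apoc1 had 1 each. Abca1 and Pltp had no probe set in the array's annotation and were not analysed here.

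Mammary gland RNA of female Wistar Furth rats that received an RXR treatment was compared with that of control rats, on a rat expression array. Neither the compound nor its dose is named in the sources used here, nor any genotype beyond the strain. Each of 12 treated and 12 control rats had an array of its own, and the same labelled targets were also mixed into 6 pools of 2, 4 pools of 3 and 1 pool of 12 per group. Each pool of 12 was run on 4 arrays and rat 3 of each group on 3, which measures array error. Of the treated rats, 6 were in diestrus, 3 in estrus, 1 in proestrus and 2 in proestrus or estrus. Of the control rats, 9 were in diestrus, 2 in estrus and 1 in proestrus or estrus.

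The deposited values ran from 4.12 to 14.1 and were read as log2, and array medians lay between 7.40 and 7.48. Luminal epithelium markers had a list mean of 9.31 to 9.68 in treated rats and 9.62 to 10.0 in control rats, and adipocyte markers one of 10.3 to 11.3 in treated rats and 9.91 to 10.8 in control rats. Control pool of 12 repeat array 3 stood apart: after the mean of all 24 rats was subtracted from each probe set, it correlated across probe sets at r = 0.0801 with the first array of its pool, where the other 5 repeats reached 0.565 to 0.820. It enters none of the tests, but it is among the repeat arrays behind each SD between repeat arrays given below. No such SD was computed without it. In whole tissue, fewer cells of a type and less RNA per cell cannot be told apart.

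Retinoid X receptors (RXR) bind DNA together with partner receptors, and LXR is one of them. LXR senses oxidised forms of cholesterol and, bound with RXR, switches on genes that move cholesterol out of cells: ABCG1 passes it to lipoprotein particles, ABCG5 and ABCG8 form a joint sterol pump, and APOE and APOC1 are proteins of the particles. The LXR and RXR pair can be activated through either partner. The mammary gland holds epithelium, adipocytes and macrophages, and in general APOE is made in quantity by adipocytes and macrophages and ABCG1 by macrophages.

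Abcg5 and Abcg8 lie back to back, and their common start region is shown because 1 of the pair was called lower in treated rats and the other was not called. In RefSeq for the rat assembly GRCr8, Abcg8 spans chr6:15698448-15717730 and Abcg5 spans chr6:15717936-15743376, with 205 bases between both genes. The window from 250 bases before to 50 after the Abcg5 start, chr6:15717686-15717985 on the plus strand, shares 295 bases with the Abcg8 window, which is read on the other strand. Capitals mark a TATAAA and a GATAAG found by a search of both strands.
Abcg5 and Abcg8 start region: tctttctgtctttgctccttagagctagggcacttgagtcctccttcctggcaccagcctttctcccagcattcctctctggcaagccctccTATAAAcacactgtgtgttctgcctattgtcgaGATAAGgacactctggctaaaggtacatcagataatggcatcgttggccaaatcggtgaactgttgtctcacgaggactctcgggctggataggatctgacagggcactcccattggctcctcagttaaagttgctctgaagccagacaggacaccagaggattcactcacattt

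Such matches are common: TATAAA occurred in 14.2% and GATAAG in 7.05% of 33469 windows of this length. Both motifs lie in the 295 bases that Abcg5 and Abcg8 have in common. The Apoe gene spans chr1:88481889-88485816, with 2836 bases between it and Apoc1 at chr1:88475018-88479052. RefSeq gives 3 start windows for Apoe. The one at chr1:88484650-88484949 on the minus strand is shown because the strongest probe set of Apoe was lower in treated rats. Capitals mark GGGCGG read on either strand, which 33.1% of all windows held. No GGGCGG lay in the window at chr1:88485767-88486066, where the gene span begins on the minus strand.
Apoe start region: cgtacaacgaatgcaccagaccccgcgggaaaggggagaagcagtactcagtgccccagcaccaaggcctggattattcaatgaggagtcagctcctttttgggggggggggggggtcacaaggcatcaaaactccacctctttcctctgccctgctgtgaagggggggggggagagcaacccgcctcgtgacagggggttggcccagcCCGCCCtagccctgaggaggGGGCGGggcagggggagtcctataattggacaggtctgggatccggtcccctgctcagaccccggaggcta

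The element that LXR and RXR bind as a pair is a direct repeat of AGGTCA with 4 bases between the copies. No window of the 6 members found in the table held a match with fewer than 3 mismatches on either strand. The closest had 3 mismatches, in the Abca1 window, and the Abcg5, Abcg8, Apoe and Pltp windows had 4. Of all windows, 21.9% held a match with at most 3 mismatches and 77.6% one with at most 4. Sequence outside these windows was not searched, so whether a member has or lacks an LXR element cannot be read from these counts. Abcg1, at chr20:9128056-9184312, has no sequence shown.

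Treated rats had less signal than control rats on 1 of 3 probe sets of Abcg1, the probe set of Abcg5 and 1 of 2 of Apoe, and no member probe set was called higher. With limma over the whole array, Benjamini-Hochberg adjustment over all probe sets and a threshold of 0.05, 3 of the 8 member probe sets passed, all 3 lower in treated rats. The background in this comparison was 18.1% of probe sets called and 9.59% called lower. The median difference of the 8 probe sets was -0.06 on the log2 scale, against -0.0025 for all probe sets. The differences were below 0 for 6 of the 8 and above 0 for 2, Abcg8 and Apoe 1371288_at, and treated and control values overlapped for all 8.

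**Figure D1:**
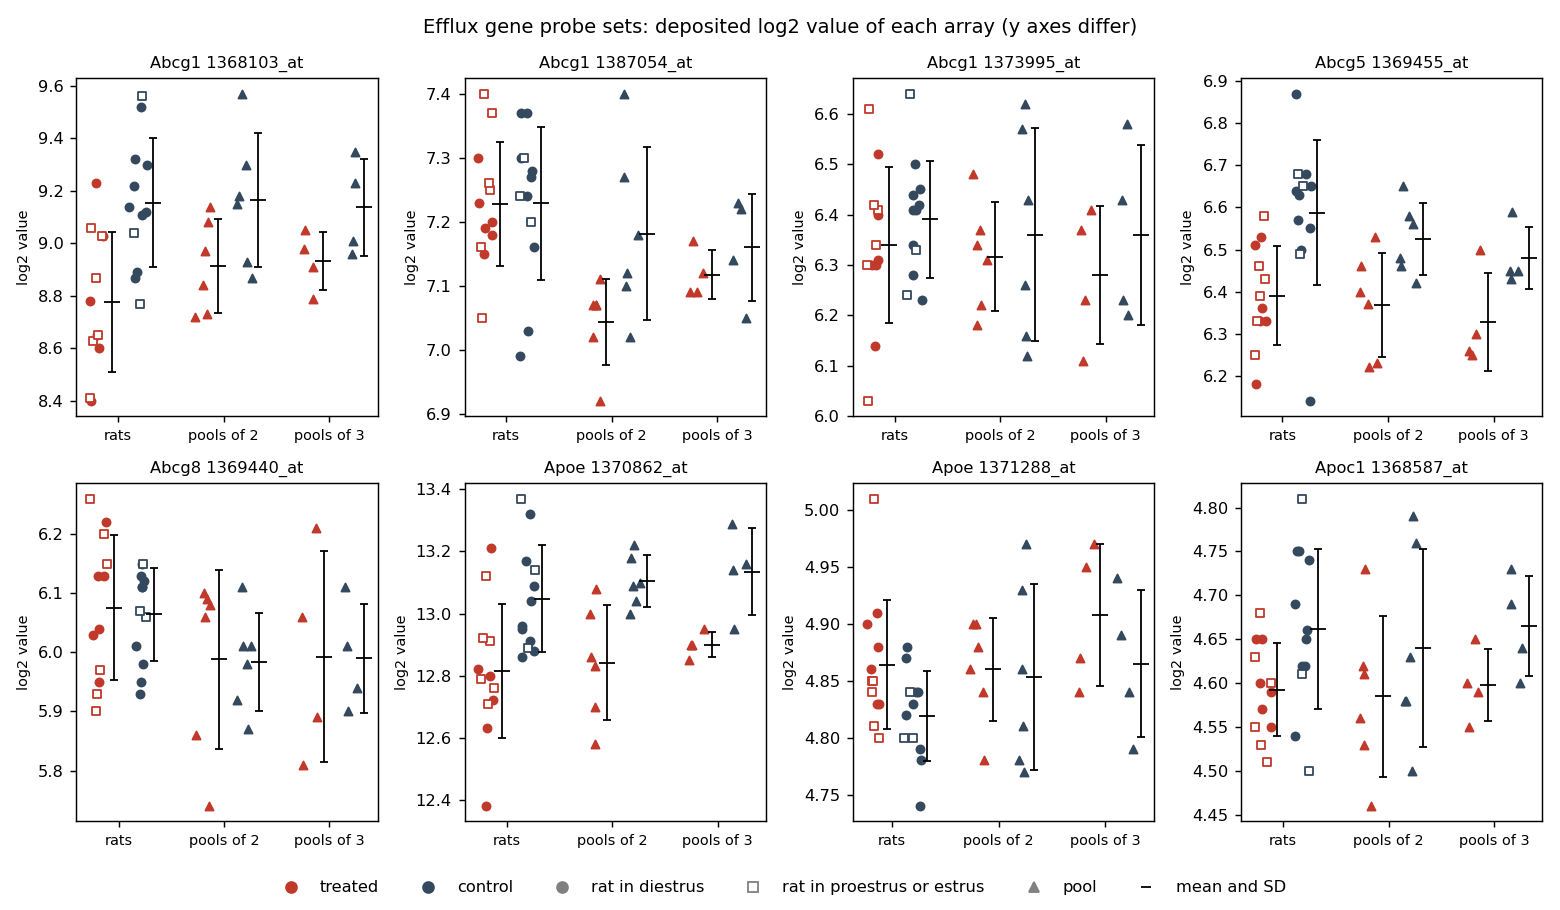
Log2 value of each of the 8 member probe sets in individual rats, pools of 2 and pools of 3, with treated values left of control values, 1 point per array and bars for the mean and SD. The 3 probe sets called lower in treated rats are Abcg1 1368103_at, Abcg5 1369455_at and Apoe 1370862_at, and treated and control points overlap in every panel.

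Among the transporters, Abcg1 passes cholesterol to high-density lipoprotein (HDL). Its strongest probe set, 1368103_at, had a lowest, median and highest log2 value of 8.40, 8.715 and 9.23 in treated rats, against 8.77, 9.13 and 9.56 in control rats. There were 6 treated rats below the lowest control rat and 4 control rats above the highest treated rat. The mean was 8.78 ± 0.267 in treated rats and 9.16 ± 0.246 in control rats (SD, n = 12 each). The difference was -0.38 ± 0.099 (SE), a fold of 0.770, with a 95% confidence interval of -0.58 to -0.17 and limma's adjusted p = 0.00798. The value of 11 of 12 treated rats was below the control mean.

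The other probe sets annotated to Abcg1 were not called. Probe set 1387054_at averaged 7.23 ± 0.097 in treated and 7.23 ± 0.119 in control rats (SD, n = 12 each), with an interval for the difference of -0.09 to 0.09 and limma's adjusted p = 0.993. Probe set 1373995_at averaged 6.34 ± 0.154 in treated and 6.39 ± 0.116 in control rats (SD, n = 12 each), with an interval of -0.16 to 0.06 and limma's adjusted p = 0.605. Both had a mean below the median over all probe sets, 7.44, and an SD between rats of 1.08 and 1.18 times that between repeat arrays, so whether they could register a change of this size was not tested. The call for Abcg1 rests on 1 of its 3 probe sets. In a comparison that was not planned, the other 2 were each subtracted from 1368103_at within rats. Treated minus control was then -0.38 against 1387054_at and -0.33 against 1373995_at (permutation tests, adjusted over 4 pairs of probe sets, p = 0.00867 and 0.00672). Both use the same 1368103_at values as the call and are no independent evidence of it.

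Abcg5 and Abcg8 encode the partners of the sterol pump known from liver and gut. Abcg5 1369455_at had a lowest, median and highest log2 value of 6.18, 6.375 and 6.58 in treated rats, against 6.14, 6.635 and 6.87 in control rats. All 12 treated rats lay below the control mean, but control rat 15, at 6.14, was the lowest of the 24. The mean was 6.39 ± 0.118 in treated rats and 6.59 ± 0.173 in control rats (SD, n = 12 each). The difference was -0.20 ± 0.058 (SE), a fold of 0.872, with a 95% interval of -0.32 to -0.08 and limma's adjusted p = 0.0182. The probe set is dim: its mean over the 24 rats, 6.49, was below the median over all probe sets, 7.44.

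Abcg8 1369440_at averaged 6.08 ± 0.122 in treated rats and 6.06 ± 0.0783 in control rats (SD, n = 12 each). The difference was 0.01 ± 0.042 (SE), with an interval of -0.08 to 0.10 and limma's adjusted p = 0.904. Abcg5 was called and Abcg8 was not. Within rats, Abcg5 minus Abcg8 averaged 0.314 ± 0.190 in treated and 0.523 ± 0.168 in control rats (SD, n = 12 each). The difference between the groups was -0.21 (permutation test, adjusted over 4 pairs of probe sets, p = 0.00867). That comparison was not planned and uses the same Abcg5 values as the call. For Abcg5 the SD between rats within a group, 0.148, was 1.34 times that between repeat arrays, and for Abcg8 it was 0.933 times, no wider than array error.

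Among the apolipoproteins, Apoe encodes the one that carries particles to receptors of the LDL receptor family. Apoe 1370862_at had a lowest, median and highest log2 value of 12.38, 12.795 and 13.21 in treated rats, against 12.86, 13 and 13.37 in control rats. There were 8 treated rats below the lowest control rat and 2 control rats above the highest treated rat. The mean was 12.81 ± 0.217 in treated rats and 13.05 ± 0.173 in control rats (SD, n = 12 each). The difference was -0.23 ± 0.076 (SE), a fold of 0.850, with a 95% interval of -0.39 to -0.08 and limma's adjusted p = 0.0324. After quantile normalization between arrays it was -0.14 with an adjusted p of 0.205, which ends the call, and leaving out any of 8 single rats also ended it, with adjusted p of 0.05002 to 0.0614 (treated rats 4, 8, 9 and 11, control rats 6, 8, 10 and 14).

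The other Apoe probe set, 1371288_at, averaged 4.86 ± 0.0566 in treated rats and 4.82 ± 0.0394 in control rats (SD, n = 12 each). Its SD between rats was 0.697 times that between repeat arrays, and limma's adjusted p was 0.232. The call for Apoe rests on 1 of its 2 probe sets. Within rats, 1370862_at minus 1371288_at differed by -0.28 between treated and control rats (permutation test, adjusted over 4 pairs of probe sets, p = 0.00867). This unplanned comparison uses the same 1370862_at values as the call and is no independent evidence of it. Whether 1371288_at could register a change of this size was not tested.

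Apoc1 encodes a small apolipoprotein of HDL and of triglyceride-rich particles. Apoc1 1368587_at averaged 4.59 ± 0.0528 in treated rats and 4.66 ± 0.0913 in control rats (SD, n = 12 each), with 11 of 12 treated rats below the control mean. The difference was -0.07 ± 0.033 (SE), with limma's adjusted p = 0.155. The unadjusted p was 0.0433 in the limma fit.

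**Figure D2:**
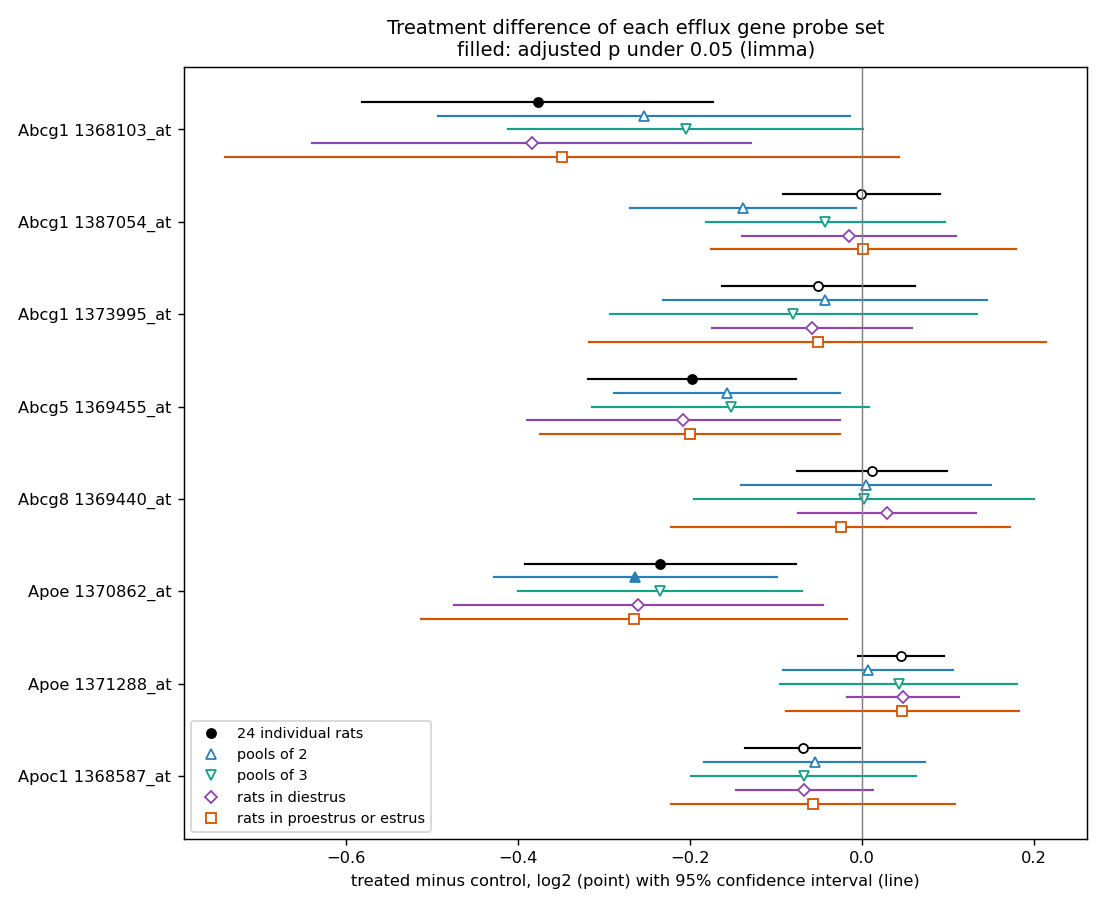
Log2 difference, treated minus control, of each member probe set with its 95% confidence interval, for individual rats, pools of 2, pools of 3, rats in diestrus and rats outside diestrus. Filled points are those called by limma at an adjusted p of 0.05. The differences of Abcg1 1368103_at, Abcg5 1369455_at and Apoe 1370862_at are below 0 in all 5 comparisons. All 3 are filled for individual rats, and only Apoe 1370862_at is for pools of 2.

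The pools repeat the measurement on the same rats and are no independent evidence. In the pools of 2, 1 of the 8 member probe sets passed, against a background of 8.82% called and 3.67% called lower. It was Apoe 1370862_at, with a lowest, median and highest value of 12.58, 12.845 and 13.08 in 6 treated pools, against 13, 13.095 and 13.22 in 6 control pools. All 6 treated pools were below the control mean, with 4 of them below the lowest control pool. The difference was -0.26 ± 0.077 (SE), with limma's adjusted p = 0.0470. It was not called after quantile normalization, and of the 12 fits that each left out 1 pool it was called in 2, those without treated pool 1 or treated pool 5.

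Abcg1 1368103_at was also lower in treated pools of 2, by less than the -0.38 in individual rats, and did not pass. Its values ran from 8.72 to 9.14 in treated pools and from 8.87 to 9.57 in control pools, and the difference was -0.25 with limma's adjusted p = 0.207. For Abcg5 the difference was -0.16 with limma's adjusted p = 0.146, and for Abcg8 0.005 with an adjusted p of 0.984. The probe set of Abcg1 with no difference between rats, 1387054_at, gave -0.14 with limma's adjusted p = 0.212.

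In the pools of 3, none of the 8 member probe sets passed, against a background of 6.24%. At an unadjusted p under 0.05 from limma there was 1 member, against 3021 of all 15866 probe sets. That was Apoe 1370862_at, whose 4 treated pools ran from 12.85 to 12.95 and whose 4 control pools ran from 12.95 to 13.29, so that they met at 1 value. The difference was -0.235, with limma's adjusted p = 0.0967. For Abcg1 1368103_at it was -0.205 with limma's adjusted p = 0.266, and for Abcg5 -0.15 with an adjusted p of 0.290. Without control pool of 3 replicate 3, Apoe 1370862_at was called.

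Both pools of 12 hold a single mixture per group and have no test. Abcg1 1368103_at read 8.94, 8.83, 9.05 and 8.92 on the 4 arrays of the treated pool, against 9.26, 9.07, 9.19 and 9.16 on those of the control pool. Apoe 1370862_at read 12.91, 12.79, 12.82 and 12.92 in the treated pool, against 13.12, 13.08, 13.10 and 13.09 in the control pool. For both probe sets every treated array was below every control array. These arrays repeat a single mixture per group, so the separation does not include the spread between rats. The share of all probe sets that separated in this way was not determined. Abcg5 read 6.42, 6.17, 6.33 and 6.35 in the treated pool, against 6.35, 6.49, 6.57 and 6.57 in the control pool, where the arrays overlapped. Treated minus control was -0.235 for Abcg1, -0.24 for Apoe and -0.18 for Abcg5. Without the control array that stood apart, a choice made after seeing the data, these were -0.24, -0.24 and -0.15.

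How well a pool gave the average of its rats differed between members. Each pool was set against the log2 of its rats' average on the linear scale. For Apoe 1370862_at the median absolute deviation was 0.0247 in 12 pools of 2 and 0.0798 in 8 pools of 3, and all 8 pools of 3 lay above their rats. For Abcg1 1368103_at it was 0.117 and 0.123. The treated pools of Abcg1 lay above their rats in 5 of 6 pools of 2 and 3 of 4 pools of 3, with median deviations of 0.15 and 0.13. The control pools lay above theirs in 5 of 6 and 2 of 4, with medians of 0.05 and -0.03. The difference between treated and control pools in this deviation was not tested. Between rats of a group, the SD was 4.34 times that between repeat arrays for Apoe 1370862_at and 3.66 times for Abcg1 1368103_at, against a median of 1.19 over all probe sets.

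**Figure D3:**
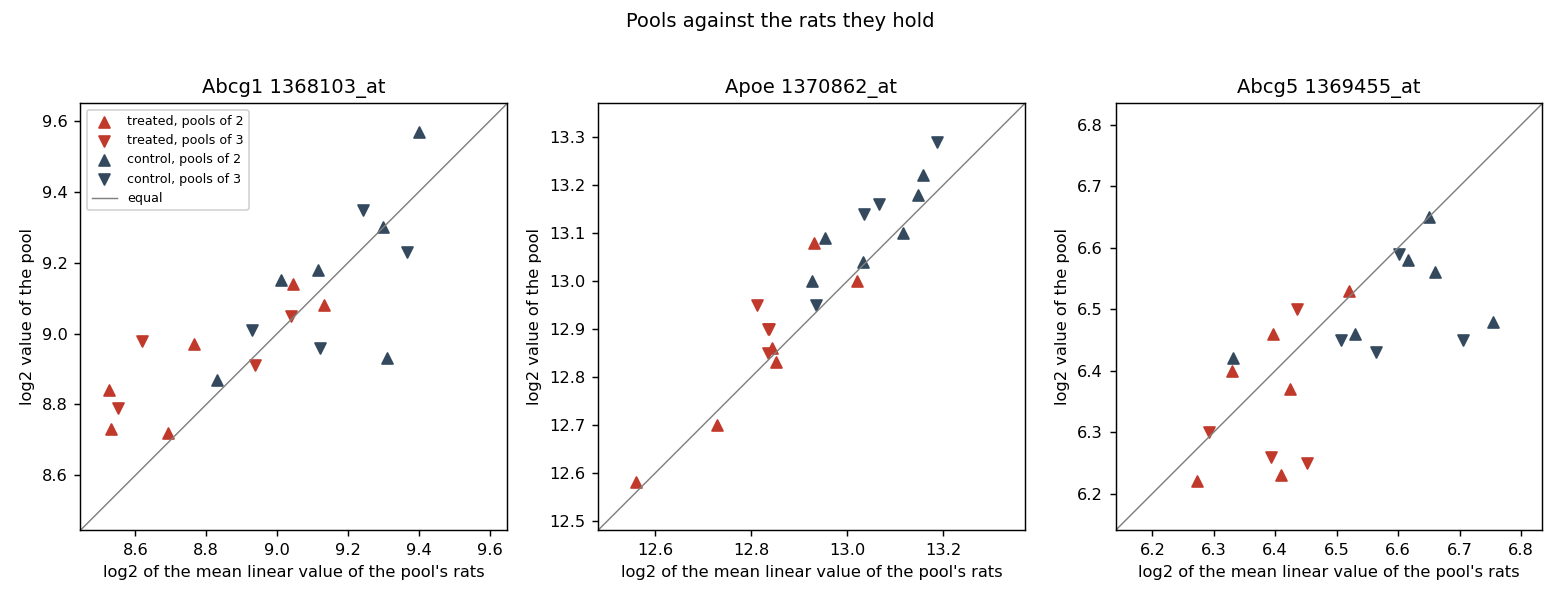
Log2 value of each pool of 2 and pool of 3 against the log2 of its rats' average on the linear scale, for Abcg1 1368103_at, Apoe 1370862_at and Abcg5 1369455_at, with a line where both are equal. Apoe pools lie close to the line, and Abcg1 and Abcg5 pools scatter more widely around it.

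Oestrous stage was unequal between the groups, since 6 treated rats and 3 control rats were outside diestrus. For stage itself, outside diestrus against diestrus with treatment in the model, limma called none of the 8 member probe sets, and the background was 0%, with 581 probe sets and no member at an unadjusted p under 0.05. The largest member difference was that of Apoe 1370862_at, 0.11 ± 0.080 (SE), with an interval of -0.05 to 0.28 and an unadjusted p of 0.181 from limma. For the interaction of treatment and stage, limma again called none of the 8 against a background of 0%, with 322 probe sets and no member at an unadjusted p under 0.05. The intervals were wide, at -0.42 to 0.50 for Abcg1 1368103_at.

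Within diestrus, 6 treated rats were compared with 9 control rats, and none of the 8 probe sets passed, against a background of 8.73%. At an unadjusted p under 0.05 from limma there were 3 members, against 3440 of all 15866 probe sets. Abcg1 1368103_at averaged 8.78 ± 0.303 in treated (n = 6) and 9.17 ± 0.206 in control rats (n = 9, SD), a difference of -0.38 with limma's adjusted p = 0.0597. Apoe 1370862_at averaged 12.76 ± 0.272 in treated and 13.02 ± 0.151 in control rats, a difference of -0.26 with limma's adjusted p = 0.134. Abcg5 averaged 6.37 ± 0.130 in treated and 6.58 ± 0.196 in control rats, a difference of -0.21 with an adjusted p of 0.161 from limma. These differences were close to those over all rats (-0.38, -0.23 and -0.20), in fewer animals.

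Outside diestrus, 6 treated rats were compared with 3 control rats, and none of the 8 passed, against a background of 1.48%. At an unadjusted p under 0.05 from limma there were 2 members, against 2087 of all 15866 probe sets. The differences were -0.35 for Abcg1 1368103_at, -0.265 for Apoe 1370862_at and -0.20 for Abcg5, with limma's adjusted p of 0.464, 0.333 and 0.287. With stage as a covariate over all 24 rats, the same 3 member probe sets passed.

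The other genes of the LXR pathway were read from lists, whose counts stand against 18.1% of all probe sets called in individual rats, 8.46% higher and 9.59% lower. Of the receptors and their co-regulators, 7 of 9 listed genes were measured: 1 passed, lower in treated rats, with a median difference of -0.07. It was Ncoa1, a co-activator of nuclear receptors, at 8.19 ± 0.248 in treated and 8.64 ± 0.206 in control rats (SD, n = 12 each), a difference of -0.45 with limma's adjusted p = 0.000567. Nr1h2, which encodes LXR beta, differed by -0.15 with an adjusted p of 0.126 from limma, and Nr1h3, which encodes LXR alpha, by -0.17 with an adjusted p of 0.469. In the pools of 3 Nr1h2 passed, with a difference of -0.30 and limma's adjusted p = 0.0413. The 3 RXR genes differed by 0.10 for Rxra, -0.07 for Rxrb and 0.09 for Rxrg, with limma's adjusted p of 0.220, 0.229 and 0.223.

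Of 13 other LXR targets, 10 were measured: 1 passed, higher in treated rats, with a median difference of -0.05. It was Smpdl3a, a secreted phosphodiesterase, at 9.26 ± 0.333 in treated and 8.74 ± 0.325 in control rats (SD, n = 12 each), a difference of 0.52 with limma's adjusted p = 0.00470. Mylip, which marks the LDL receptor for breakdown, differed by -0.11 with an adjusted p of 0.588 from limma.

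Most of the lipogenic targets of LXR were higher in treated rats, where the called efflux genes were lower. Of 8 listed, 7 were measured: 5 were higher in treated rats, none lower, and the median difference was 0.57, against 8.46% of all probe sets called higher and a median of -0.0025. Acaca, whose enzyme makes malonyl-CoA for fatty acid synthesis, averaged 12.05 ± 0.352 in treated and 11.01 ± 0.511 in control rats (SD, n = 12 each), a difference of 1.04 with limma's adjusted p = 7.55e-05. Mlxipl, the carbohydrate-responsive factor ChREBP, was higher by 0.89, Fasn, fatty acid synthase, by 0.65, Lpl, lipoprotein lipase, by 0.57 and Scd, a fatty acid desaturase, by 0.51. Srebf1, the LXR target that encodes the lipogenic factor SREBP-1, differed by -0.13 with limma's adjusted p = 0.587, and Scd2 by -0.24 with an adjusted p of 0.555. Adipocyte markers moved with these genes: 8 of 10 measured were higher in treated rats and 1, Cfd, lower, with list means of 10.3 to 11.3 in treated and 9.91 to 10.8 in control rats, and Lpl is on both lists. Their part in these differences was not tested.

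**Figure D4:**
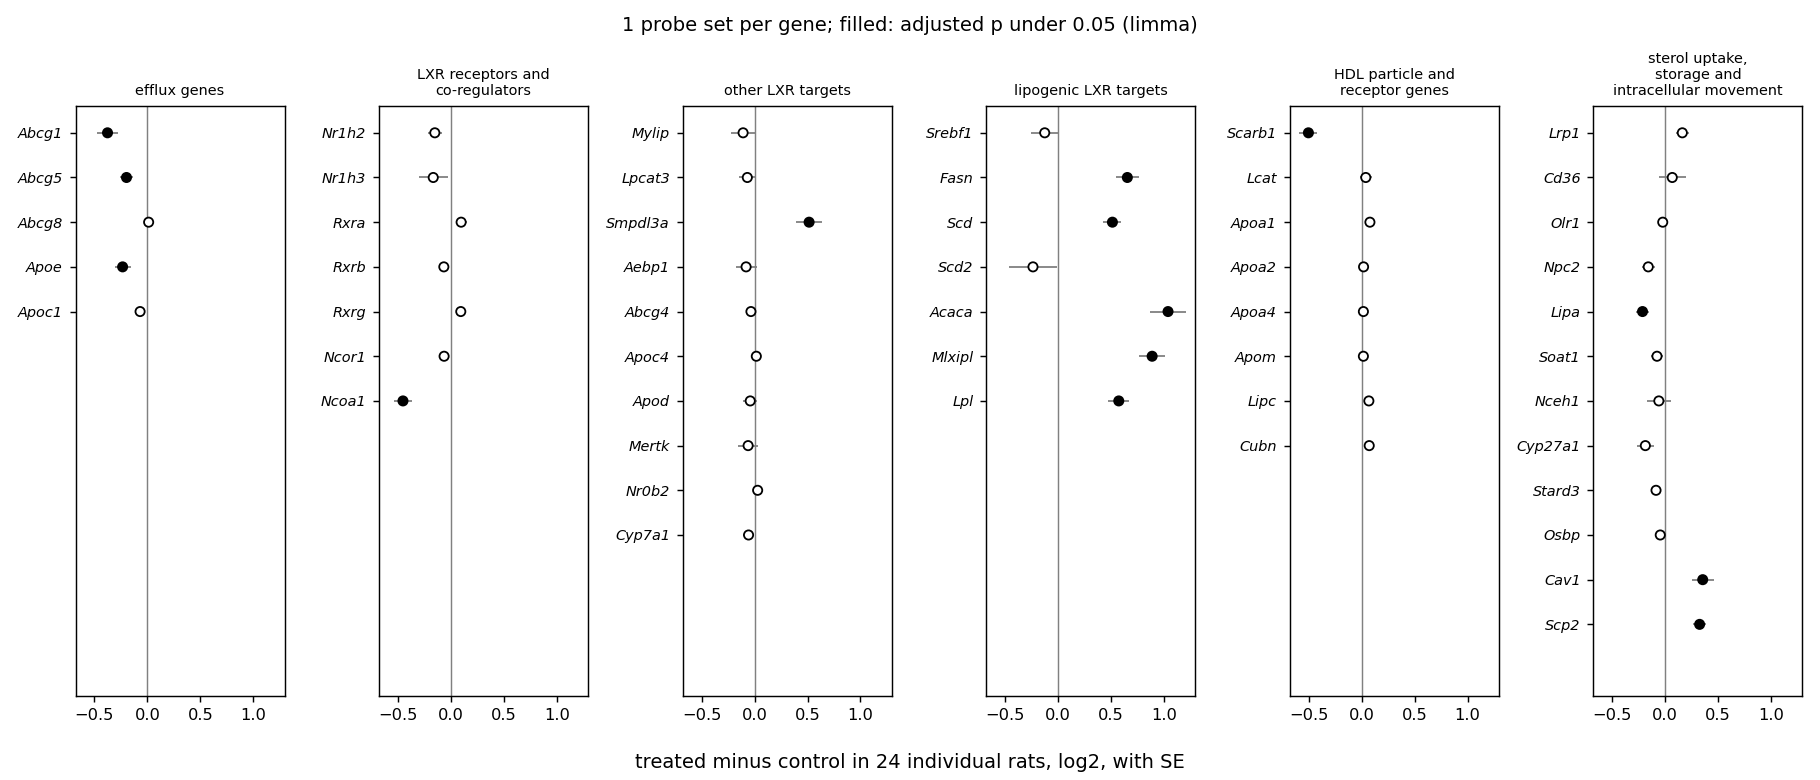
Log2 difference, treated minus control, in individual rats for the efflux genes and 5 lists of related genes, 1 probe set per gene, with bars for the SE and filled points for those called by limma at an adjusted p of 0.05. The called efflux genes lie left of 0 at -0.38 to -0.20, and the called lipogenic genes lie right of 0 at 0.51 to 1.04.

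Of 9 genes of HDL particles and their receptors, 8 were measured and 1 passed, lower in treated rats, with a median difference of 0.03, a count near the 18.1% of all probe sets called. It was Scarb1, the receptor that takes cholesterol esters from HDL, at 9.46 ± 0.209 in treated and 9.97 ± 0.232 in control rats (SD, n = 12 each). The difference was -0.50 with limma's adjusted p = 0.000135. The same probe set passed in the pools of 2, at -0.52, and of 3, at -0.49, with limma's adjusted p of 0.000600 and 0.00266. These pools hold the same rats, and passing in both was not particular to Scarb1. Ncoa1, Smpdl3a and the 5 higher lipogenic genes given above also passed in both. Of 18 genes of sterol uptake, storage and movement within cells, 12 were measured: 2 were higher, 1 lower and 9 did not pass, with a median of -0.05. Scp2, a sterol carrier protein, was higher by 0.32 with limma's adjusted p = 0.000675, and Cav1, the coat protein of caveolae, by 0.35 with an adjusted p of 0.0173. Lipa, the lysosomal lipase that frees cholesterol from its esters, was lower at a difference of -0.215 with limma's adjusted p = 0.0106.

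Cell type markers were set beside the efflux genes, with the same background of 8.46% of all probe sets called higher and 9.59% called lower. Of 11 macrophage markers measured, 2 were higher in treated rats, Csf1r and Lyz2, 1 was lower, Cd14, and 8 did not pass, with list means of 8.52 to 8.84 in treated rats and 8.52 to 8.86 in control rats. Of 11 luminal epithelium markers 8 were lower and none higher, with list means of 9.31 to 9.68 in treated rats and 9.62 to 10.0 in control rats. Of 6 basal epithelium markers 3 were lower and 1 higher, with list means of 9.59 to 10.3 in treated rats and 9.86 to 10.4 in control rats. Of 5 endothelial markers 1 was lower, and of 3 Schwann cell markers 1 was higher and 1 lower. None of 6 fibroblast, 5 lymphocyte and 5 skeletal muscle markers passed in limma's fit. The epithelium and adipocyte lists differed with treatment as well, and their part in the efflux differences was not tested.

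Across rats, the list means were set against the 5 efflux genes, within treated and within control rats apart. None of 20 relations with the macrophage and adipocyte lists passed after adjustment. The strongest was Abcg1 with the adipocyte list in treated rats, at r = 0.736 and rho = 0.768 (permutation tests, n = 12, adjusted p = 0.110 and 0.0960), and r was 0.648 without the 2 rats farthest from the list's median. In control rats the same r was 0.013. Apoe and the macrophage list had r = 0.702 in control rats (permutation test, n = 12, adjusted p = 0.110) and 0.204 in treated rats. With the luminal list, chosen after the data were seen, Abcg1 had r = -0.741 in treated rats (permutation test, adjusted over 10 relations, p = 0.0770) and 0.098 in control rats.

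Between the efflux genes, 1 of 20 relations passed after adjustment. Abcg1 and Apoc1 correlated in control rats at r = 0.802 and rho = 0.867 (permutation tests, n = 12, adjusted p = 0.0432 and 0.0102), and r was 0.664 without the 2 rats farthest from the median of Abcg1. In treated rats the same r was 0.136 (adjusted p = 0.934 by permutation), and the difference between the groups was not tested. Apoc1 averaged 4.63 over the 24 rats, near the lowest value on any array, 4.12. Its SD between rats was 1.28 times that between repeat arrays. Abcg5 and Abcg8, the partners of 1 pump, had r = -0.257 in treated and 0.285 in control rats, and neither passed.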

How the data were processed

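Mammary gland RNA of individual rats and of pools was measured on 56 arrays. Each deposited value summarises 1 probe set on 1 array. The deposited values were taken to be log2 as the authors deposited them, since values exceed 11.1, the highest natural log a 16-bit reading allows, and none exceeds 16, the highest log2. Pools were mixed from labelled, fragmented targets, per the labels' protocols. How the authors made these log2 values is not stated: the sources used here name no software, background correction or normalization before the files were deposited. For repeat arrays of the pools of 12 the source label says individual, and title and description, which name the pools, were followed.

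The 57 control probe sets of 15923 were left out. Symbols came from the platform's annotation, updated by Entrez ID to RefSeq (GRCr8) for 12748 probe sets: 12783 had 1 symbol, 312 several and 2771 none listed. No probe set with several symbols named a member. For 1 probe set per gene, the one brightest on average in the 24 rats was taken. No detection calls were used, and 6 of the 8 member probe sets had a mean below the median over all probe sets, 7.44. The number of arrays limits the precision. The labels name separate rats.

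limma 3.58.1 in R 4.3.3 (lmFit, eBayes) was fitted to all 15866 probe sets with Benjamini-Hochberg adjustment at 0.05, on the first array of each rat, and apart on pools of 2 and of 3. Correlations and the permutation tests of pairs of probe sets within rats used 100000 resamples, with adjustment in scipy 1.17.1. The scripts were tested on simulated data. Alternatives were median centring, quantile normalization, leaving out dim probe sets, a trended robust prior, array weights, stage as a covariate, the rat number as a block, all arrays of rat 3, 1 probe set per gene, and leaving out single arrays. Named genes were all members, up to 6 called genes of each list by smallest p, and the LXR and RXR genes; Mylip, Scd2, Srebf1 and the marker genes were named in addition, after their values were seen. For each member the 3 genes most like it were found. Members and lists were chosen with earlier results of these data known.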

Additional observations from a re-analysis of the deposited data

Results flagged for a closer look

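Each group of arrays of each member was searched for a single array far from the rest, in 56 groups of values, of which chance alone would mark about 1 in 20. Among treated rats outside diestrus, Apoe 1371288_at read 5.01 in rat 2, an animal in estrus, and 4.80 to 4.85 in the other 5. Among control rats in diestrus, Abcg5 1369455_at read 6.14 in rat 15 and 6.50 to 6.87 in the other 8. Among control pools of 3, Abcg5 1369455_at read 6.59 in replicate 1, mixed from rats 10, 11 and 13, and 6.43 to 6.45 in the other 3. The cause of these values was not tested.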

How the results depend on the processing

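In individual rats 2 or 3 member probe sets passed under each of the 9 other settings and with each of the 24 rats left out. Abcg1 1368103_at was called in all of these, at -0.42 to -0.34. Abcg5 was called in all that tested it, at -0.28 to -0.17. Leaving out probe sets below the array's median removed 6 of the 8 members from the fit. Apoe 1370862_at lost its call after quantile normalization and without any of 8 rats, as given above, and ran from -0.27 to -0.19 with 1 rat left out. Abcg1 1387054_at, which was not called, turned its sign to 0.00417 with median centring and 0.00556 with the mean of rat 3's arrays, and ran from -0.0226 to 0.0154 with 1 rat left out. Abcg8 ran from -0.00508 to 0.0277. In pools of 2 no member passed after quantile normalization and 2 passed with array weights, Abcg1 1368103_at and Apoe 1370862_at, and 0 to 1 passed with 1 pool left out. In pools of 3, 0 to 1 passed with 1 pool left out. Within diestrus 1 passed with dim probe sets left out, Abcg1 1368103_at. The cause of these shifts was not tested. Stage, the interaction and the rats outside diestrus gave 0 under every setting tried. Rat numbers do not pair the groups: of 10 shared numbers 5 correlated over 0.1 (range -0.389 to 0.358) and 0 correlated best with their own. The replicate block on these 20 rats called the same 3 members and 2535 probe sets in all.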

Other observations

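Genes whose level followed each member most closely were taken from Pearson's r over the 24 rats with the group means subtracted, and are given as a description with no test. For Abcg1 1368103_at they were RGD1359108 at 0.803, Rasd1 at 0.800 and Lrrc58 at 0.794. For Abcg5 they were Dnai7 at 0.852, Pgap4 at 0.784 and Plekha6 at 0.782, and for Abcg8 Crocc at 0.840, Pacs1 at 0.840 and Dnaaf1 at 0.836. For Apoe 1370862_at they were Atp1b3 at 0.825, Glud1 at 0.811 and Bag3 at 0.804, and for Apoc1 Hpcal1 at 0.721, Sik1 at 0.696 and Ppm1h at 0.696. The SD between rats of Abcg8 was no wider than that between repeat arrays (0.933 times), and array error can enter such correlations. The 5 members had 15 such genes in all, and none was named for more than 1 member.

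Probe sets of 1 gene were also set against each other across rats, a comparison added after the values were seen. None of 8 relations passed after adjustment. Abcg1 1368103_at and 1373995_at had r = 0.579 in treated and 0.438 in control rats (permutation tests, n = 12 each, adjusted p = 0.316 for the treated rats). Abcg1 1368103_at and 1387054_at had r = -0.485 in treated and -0.179 in control rats, and the 2 Apoe probe sets -0.313 in treated and -0.436 in control rats.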
